A study of Bos taurus with 30 samples.

Results

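The miR-148 and miR-152 family comprised 3 miRNAs, bta-miR-148a, bta-miR-148b and bta-miR-152, which were taken by name from the 1030 bovine miRNAs of a small RNA sequencing table of calf testis. All 3 passed the filter on low values, as did 387 miRNAs in all. The study compared 2 planes of nutrition in early life, High and Moderate, in Holstein-Friesian bulls, with 15 calves and as many libraries on each. A High calf received 1.5 kg of milk replacer daily, fed as 10 L, had concentrate ad libitum, and was meant to gain 1.0 kg a day. A Moderate calf received 0.5 kg daily, fed as 4 L, had 0.5 kg of concentrate, and was meant to gain 0.5 kg a day. The diets ran from 2 to 12 weeks of age, and testes of both groups were taken at 12 weeks. The samples hold no other control, so every diet comparison is of High with Moderate. All values are those the authors deposited, in TMM-scaled CPM: reads per 1 M reads of a library (CPM), with library totals adjusted by edgeR's trimmed mean of M values (TMM), which is meant to make libraries of unlike composition comparable.

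A miRNA guides a silencing complex to mRNAs that pair with its seed, the bases near its 5′ end. miR-148a, miR-148b and miR-152 carry 1 shared seed and are therefore predicted to bind the same sites. In human and mouse cells they are known for repressing DNMT1, the enzyme that copies DNA methylation onto newly replicated strands, and miR-148a is also known as an abundant miRNA of milk and of liver lipid control. In mice, DNA methylation is laid down anew in the male germ line before and around birth. In whole tissue, fewer cells of a type and less RNA per cell cannot be told apart.

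The family genes lie in related neighbourhoods of the genome, according to the RefSeq gene table of the bovine assembly ARS-UCD2.0. MIR148B overlaps COPZ1 and MIR152 overlaps COPZ2, which encode the zeta subunits of the coatomer coat of Golgi vesicles (strand was not used), while MIR148A overlaps no protein-coding gene. Among the 8 nearest protein-coding genes on either side, each of MIR148A, MIR148B and MIR152 has 1 gene of the heterochromatin protein 1 family (CBX3, CBX5 and CBX1, in that order) and 1 gene of the NFE2 transcription factor family (NFE2L3, NFE2 and NFE2L1). The table places 2 further family genes on the members themselves, MIR148D overlapping MIR148A and MIR148C overlapping MIR152. No label or header names the build behind the deposited values, so no coordinates are printed.

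The libraries held 6.0003 M to 19.98 M reads (M, 1e6), with 24 libraries under 12 M reads (11 High, 13 Moderate) and 6 above (4 High, 2 Moderate). Moderate replicate 5 stood apart, since miR-10b made up 84.8% of that library and 37.0% to 49.0% of each of the other 29. The main results are therefore given with and without it, while the marker values below include it. Diet follows the diet characteristic of each library, with which the ending of each column name agrees in all 30, but 18 libraries carry the opposite diet in their titles. Gonadal miR-202 was found in every library, at 1055 to 3282, and the germ cell miRNAs miR-34c and miR-449a were above 0 in all 30. Of these 3 testis markers only miR-34c passed the test for diet, with means of 113 in High and 64.6 in Moderate libraries (log2 difference 0.96, adjusted p = 0.0260 in limma). The log2 difference was 0.05 for miR-202 and 0.02 for miR-449a (adjusted p = 0.815 and 0.949 in limma). The sum of the 3 ranged from 2011 to 2783 in High libraries and from 1075 to 3395 in Moderate libraries. The part of the miR-34c difference in the family's values was not tested. None of the 16 tested markers of smooth muscle, endothelium, red blood cells, leukocytes and epithelium passed. Of all 387 tested miRNAs 4.91% did, so a count of 0 in 16 lies near that share. For smooth muscle, miR-143 plus miR-145 ranged from 83216 to 139866 in High libraries and from 85353 to 178449 in Moderate libraries. The liver miRNA miR-122 reached at most 2.84 in High libraries and 0.476 in Moderate libraries.

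The 3 members were present at very unequal levels, in the order miR-148a, miR-148b, miR-152. miR-148a averaged 52272 ± 4177 TMM-scaled CPM over the 30 libraries (SD), the third highest of the 387 miRNAs tested for diet. miR-148b averaged 638 ± 73.8 and ranked 68. miR-152 averaged 109 ± 8.89 and ranked 120. The ranges did not meet in any library: the lowest miR-148a value was 43723, miR-148b lay between 501 and 807, and miR-152 lay between 90.8 and 128. Mature miRNAs are of nearly equal length and each is read in 1 piece, so levels can be set side by side, but ligation and amplification favour some sequences in small RNA libraries and their part in the order was not tested.

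Within each library miR-148a supplied nearly all of the family's reads. Its share of the family's reads lay between 98.4% and 98.8% in High libraries (median 98.6%) and between 98.2% and 98.8% in Moderate libraries (median 98.7%). miR-148b supplied 1.05% to 1.42% under High and 0.946% to 1.59% under Moderate. miR-152 supplied 0.169% to 0.252% in High libraries and 0.177% to 0.252% in Moderate libraries. By abundance, the family was nearly all miR-148a in both diets.

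The reads behind these values set unequal precision. miR-148a had at least 104625 reads in every library, miR-148b at least 1697 and miR-152 at least 191, each of these lowest counts in Moderate replicate 5. The deposited values of the 3 members were worth whole reads in all 30 libraries. The other 2 names of the family were nearly absent. miR-148c had 3 reads in 1 High library and 1 read in each of 2 Moderate libraries, and was listed at 0 in the other 27, where 3 reads would be worth at most 1.43 TMM-scaled CPM. miR-148d had 13 reads over 7 High libraries and 10 reads over 8 Moderate libraries. Neither reached the minimum for testing.

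**Figure D1:**
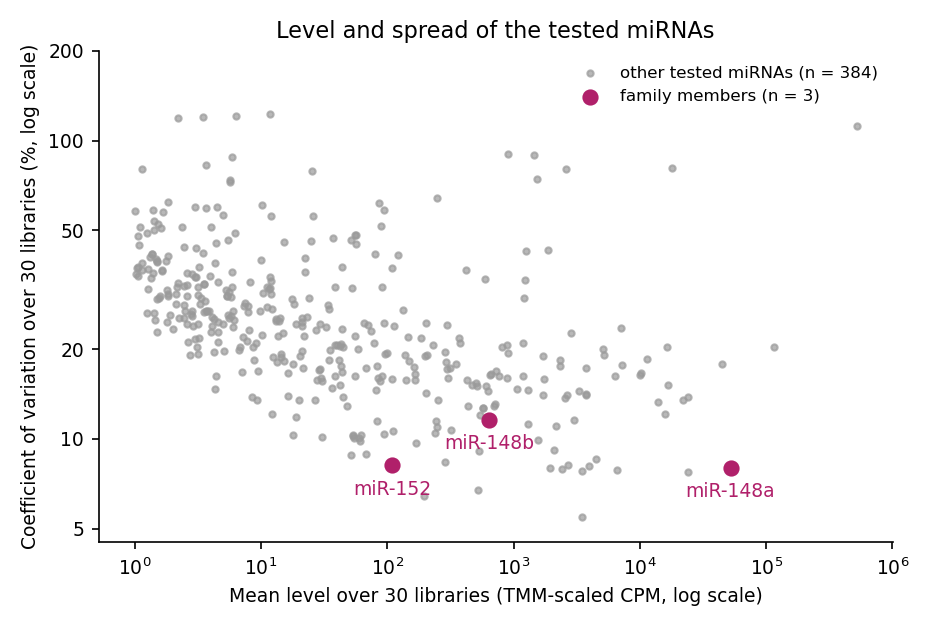
Mean level (x axis, TMM-scaled CPM, log scale) and coefficient of variation over the 30 libraries (y axis, percent, log scale) of the 387 tested miRNAs, 1 point each. The 3 family members lie along the lower edge of the cloud, at 7.99% for miR-148a, 11.6% for miR-148b and 8.16% for miR-152, against a median of 23.5% over all tested miRNAs.

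The members varied less between calves than most miRNAs of these testes. Over all 30 libraries the coefficient of variation was 7.99% for miR-148a, 11.6% for miR-148b and 8.16% for miR-152, while the median of the 387 tested miRNAs was 23.5%. Counted from the least variable miRNA, miR-148a ranked 8, miR-152 ranked 11 and miR-148b ranked 39, as the plot of level and spread shows. Leaving out Moderate replicate 5, the values were 8.07%, 10.7% and 7.62% in the order miR-148a, miR-148b, miR-152, against a median of 19.4%, and the ranks were 21, 73 and 15. Counting error at the mean read number would alone give 0.135% for miR-148a, 1.23% for miR-148b and 2.97% for miR-152, so most of the spread in each member lay above counting error. The comparison was not matched for level. The median level of the tested miRNAs was 22.5 TMM-scaled CPM, below the mean of every member, and counting error weighs more at low levels. These are coefficients on the deposited scale, to which the TMM scaling contributes.

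Several miRNAs lay close to the members in level. miR-143 and miR-10b stood above miR-148a in all 30 libraries, miR-181a stood below it in all 30, and miR-26a, next in the order at 44318 ± 7912, stood below it in 25. The neighbours of miR-148b were miR-30b-5p (665 ± 109) and miR-410 (655 ± 107) above it and miR-195 (628 ± 91.2) and miR-339a (606 ± 90.9) below it, all within their spread. Those of miR-152 were miR-32 (109.9 ± 17.5), miR-1388-5p (109.6 ± 41.0), miR-493 (98.8 ± 19.1) and miR-30f (95.7 ± 18.4), again within their spread.

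**Figure D2:**
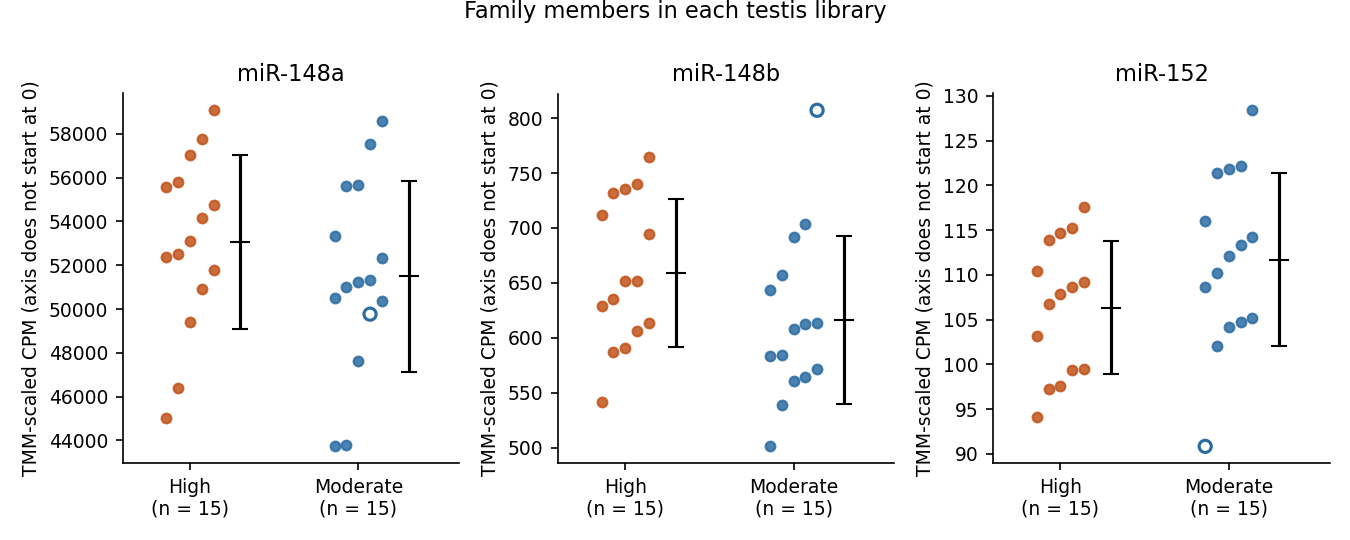
Deposited value (TMM-scaled CPM, axes not starting at 0) of miR-148a, miR-148b and miR-152 in each of 15 High and 15 Moderate libraries, with mean and SD as bars and Moderate replicate 5 as an open circle. The diets overlap for all 3 members, and Moderate replicate 5 holds the highest miR-148b value (807) and the lowest miR-152 value (90.8).

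No member passed the test for diet. In limma, fitted over all tested miRNAs with Benjamini-Hochberg adjustment over all of them, 0 of 3 members had an adjusted p under 0.05, where 4.91% of the 387 tested miRNAs did (19 miRNAs, 2.33% higher and 2.58% lower under High). On the recovered reads edgeR also called 0 of 3, against 9.52% of 378 miRNAs, and DESeq2 0 of 3, against 13.03% of 399. At an unadjusted p under 0.05 limma counted 0 members, against 21.2% of the tested miRNAs. By the same measure edgeR counted 1 member (miR-152, p = 0.0395, adjusted p = 0.170), against 24.9%. DESeq2 counted 0, against at most 25.8% of the 399. Its 103 miRNAs under 0.05 were counted with or without an adjusted p.

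miR-148a, the abundant member, had a lowest, median and highest value of 45011, 53109 and 59081 in High libraries, against 43723, 51231 and 58612 in Moderate libraries. Its mean was 53048 ± 3979 under High and 51497 ± 4361 under Moderate (SD, n = 15 each). The diets covered nearly the same range, with 1 High library above the highest Moderate one and 2 Moderate libraries below the lowest High one. The log2 fold change, High minus Moderate, was 0.04 with a 95% confidence interval from -0.05 to 0.14 (adjusted p = 0.649 in limma). That interval spans a change from -3.73% to 10.4%. Leaving out Moderate replicate 5 gave 0.04 (adjusted p = 0.607 in limma).

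miR-148b, whose gene overlaps COPZ1, had a lowest, median and highest value of 542, 651 and 764 in High libraries, against 501, 608 and 807 in Moderate libraries. Its mean was 659 ± 67.0 under High and 616 ± 76.2 under Moderate. The diets overlapped, although 11 of 15 High libraries lay above the Moderate median. The log2 fold change was 0.10 (95% confidence interval -0.03 to 0.22, adjusted p = 0.364 in limma). Without Moderate replicate 5, the highest of all libraries, the Moderate mean was 602 ± 57.0 (n = 14), 5 High libraries lay above every Moderate one, and the log2 fold change was 0.13 (0.02 to 0.24). The adjusted p was then 0.106 in limma, 0.0752 in edgeR and 0.0657 in DESeq2, at an unadjusted p of 0.0219 in limma, where 29.9% of the tested miRNAs had one under 0.05 and 11.7% an adjusted one.

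miR-152, whose gene overlaps COPZ2, pointed the other way without passing the test. Its lowest, median and highest values were 94.1, 108 and 118 in High libraries, against 90.8, 112 and 128 in Moderate libraries, and its mean was 106 ± 7.46 under High and 112 ± 9.64 under Moderate. Of the 15 High libraries 11 lay below the Moderate median, and 4 Moderate libraries lay above the highest High one. The log2 fold change was -0.07 (95% confidence interval -0.17 to 0.03, adjusted p = 0.445 in limma). Without Moderate replicate 5, the lowest of all libraries, it was -0.09 (-0.18 to -0.003), with an unadjusted p of 0.0433 and an adjusted p of 0.156 in limma, and 5 High libraries lay below every Moderate one. For comparison, the lower and upper quartiles of the log2 fold changes of the 387 tested miRNAs were -0.11 and 0.14 (median 0.03). All 3 members fell between these quartiles with all libraries kept. Without Moderate replicate 5 the quartiles over the 385 tested were -0.11 and 0.09 (median 0.003). There miR-148b, at 0.13, lay above the upper quartile, while miR-148a (0.04) and miR-152 (-0.09) lay between the quartiles.

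**Figure D3:**
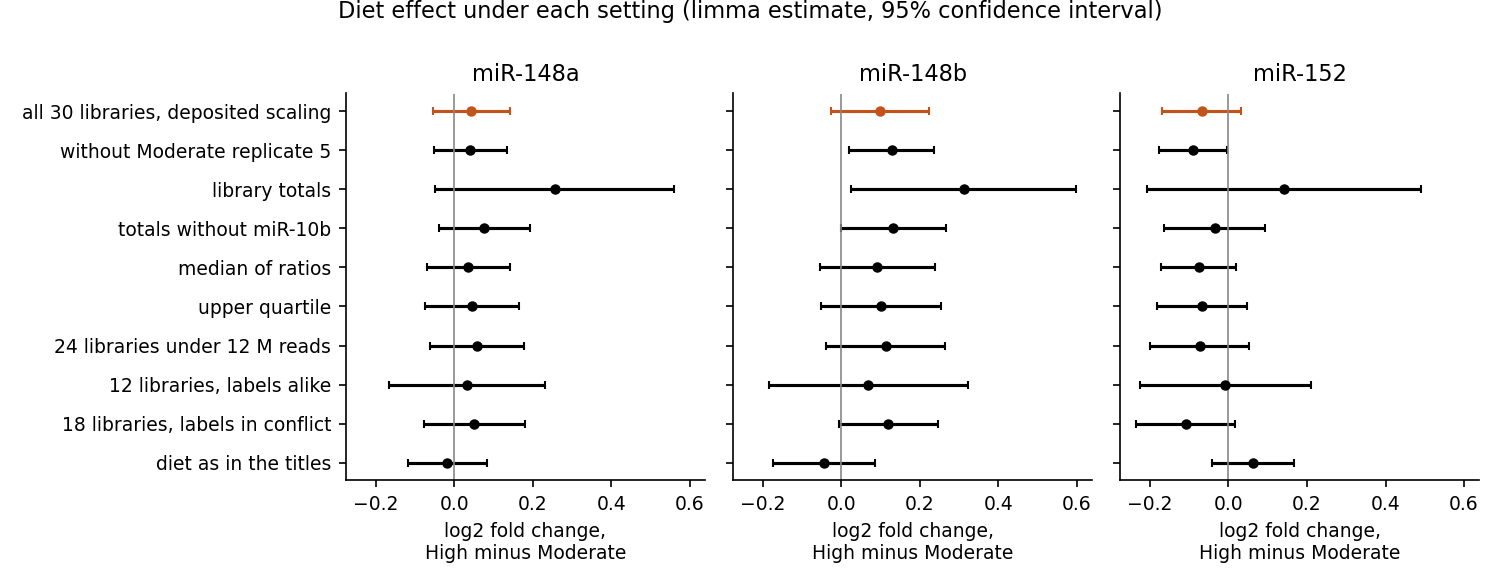
Log2 fold change of each member, High minus Moderate, with its 95% confidence interval in limma, under 10 choices of scaling, libraries and labels. The estimates with all 30 libraries and the deposited scaling are 0.04 for miR-148a, 0.10 for miR-148b and -0.07 for miR-152, and the diet in the titles gives -0.02, -0.04 and 0.06.

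The scaling of the libraries moved all 3 values together. As shares of all reads in a library, miR-148a took 5.72% ± 0.574 under High and 5.02% ± 1.19 under Moderate, miR-148b 0.0711% ± 0.00938 under High and 0.0591% ± 0.0136 under Moderate, and miR-152 0.0115% ± 0.00115 under High and 0.0110% ± 0.00266 under Moderate. In Moderate replicate 5 the family took 1.20% of the reads (Wilson 95% interval 1.19% to 1.21%), against 4.51% to 6.81% in the other 29. The same library that was highest for miR-148b in TMM-scaled CPM was thus the lowest as a share of reads, at 0.0191% (Wilson 95% interval 0.0182% to 0.02004%). With library totals in place of TMM the log2 fold changes were 0.26, 0.31 and 0.14 in the order miR-148a, miR-148b, miR-152, while the median of all tested miRNAs moved to 0.21. The direction of miR-152 turned with that scaling and that of miR-148a and miR-148b did not. With library totals and without Moderate replicate 5, the values were 0.11, 0.20 and -0.02 around a median of 0.07, and miR-148b had an adjusted p of 0.0539 in limma.

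A ratio of 2 members within a library is free of the scaling, so the balance inside the family was compared by diet. The ratio of miR-148b to miR-152 had a lowest, median and highest value of 4.70, 6.26 and 7.56 in High libraries, against 4.55, 5.39 and 8.88 in Moderate libraries. Of the 15 High libraries 14 lay above the Moderate median, and the highest ratio of all was that of Moderate replicate 5. The mean log2 ratio was 0.17 higher under High (standard error 0.08), a difference with a permutation p of 0.0436 (n = 15 per diet, two-sided) that became 0.0876 when adjusted over the 3 ratios compared. It did not pass after adjustment.

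That result turned on single libraries. The log2 difference was 0.22 with Moderate replicate 5 left out (standard error 0.07, permutation p = 0.00315, adjusted 0.00945), and the ratio averaged 6.22 ± 0.674 under High and 5.36 ± 0.733 under Moderate (n = 15 and 14). It also passed without High replicate 9, the lowest High library (0.20, adjusted permutation p = 0.0253), and without Moderate replicate 9 (0.19, adjusted permutation p = 0.0421). It did not pass in the other 27 fits that each left out 1 library, although all 30 had the same sign. The 3 ratios were set up with earlier results of these data known, and Moderate replicate 5 was known to stand apart. How often ratios of other miRNAs pass was not tested. Without Moderate replicate 5, 29.9% of the 385 single miRNAs tested had an unadjusted p under 0.05 in limma.

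The ratio of miR-148a to miR-152 gave a difference of the same sign. This ratio shares miR-152 with the ratio of miR-148b to miR-152, so the results are not independent. Its lowest, median and highest values were 391, 508 and 582 in High libraries and 391, 452 and 557 in Moderate libraries, with 13 of 15 High libraries above the Moderate median. The mean log2 ratio was 0.11 higher under High (standard error 0.06, permutation p = 0.0584, adjusted 0.0876). The difference passed without Moderate replicate 5 (0.13, adjusted permutation p = 0.0423), without High replicate 9 (0.14, adjusted permutation p = 0.0253) and without Moderate replicate 9 (0.13, adjusted permutation p = 0.0421). The ratio of miR-148a to miR-148b ran from 69.5 to 94.5 under High (median 80.6) and from 61.7 to 104 under Moderate (median 84.8). Its log2 difference was -0.06 (standard error 0.06, permutation p = 0.343, the same when adjusted), and -0.09 without Moderate replicate 5 (adjusted permutation p = 0.0912).

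**Figure D4:**
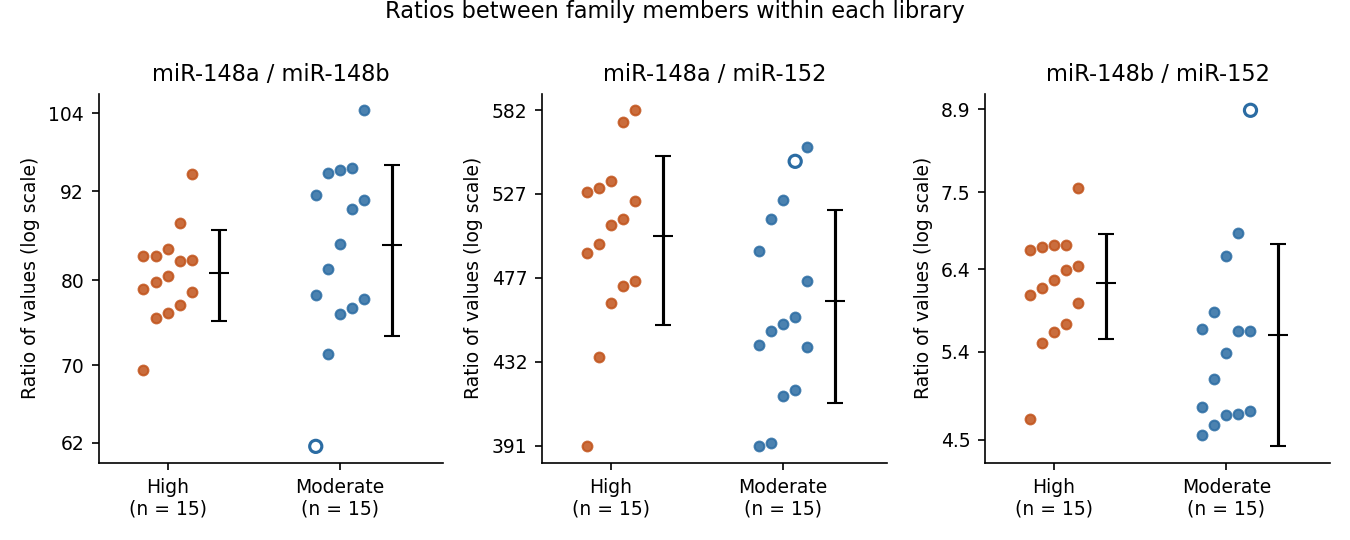
Ratio of deposited values between members (log scale) in each of 15 High and 15 Moderate libraries, with mean and SD as bars and Moderate replicate 5 as an open circle. In the ratio of miR-148b to miR-152, 14 of 15 High libraries lie above the Moderate median of 5.39, and Moderate replicate 5 is highest at 8.88.

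The same values were taken within ranges of depth and within sets of labels. In the 24 libraries under 12 M reads the log2 fold changes were 0.06 for miR-148a, 0.11 for miR-148b and -0.07 for miR-152, and the log2 difference of the ratio of miR-148b to miR-152 was 0.19 (11 against 13, permutation p = 0.0676). The 6 deeper libraries, 4 High and 2 Moderate, gave -0.05, 0.05, -0.004 and 0.05 in the same order, with no test run. In the 12 libraries whose labels give 1 diet, the ratio differed by 0.08 (6 against 6, exact permutation p = 0.615), and by 0.19 without Moderate replicate 5 (6 against 5, exact permutation p = 0.145). In the 18 libraries with conflicting labels, grouped by the diet characteristic, it differed by 0.23 (9 against 9, exact permutation p = 0.00847, adjusted 0.0254). Whether the difference of 0.08 and that of 0.23 themselves differ was not tested. The ratio of miR-148a to miR-152 differed by 0.13 in the 24 libraries (permutation p = 0.0591). In the 6 deeper ones it differed by -0.05, with no test run. It differed by 0.04 in the 12 libraries (exact permutation p = 0.677) and by 0.16 in the 18 (exact permutation p = 0.0400, adjusted 0.0600). With the diet in the titles all 3 members and all 3 ratios changed sign and none passed, the ratio of miR-148b to miR-152 standing at -0.11 (permutation p = 0.217). Every direction given above therefore depends on the diet characteristic being the right label.

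**Figure D5:**
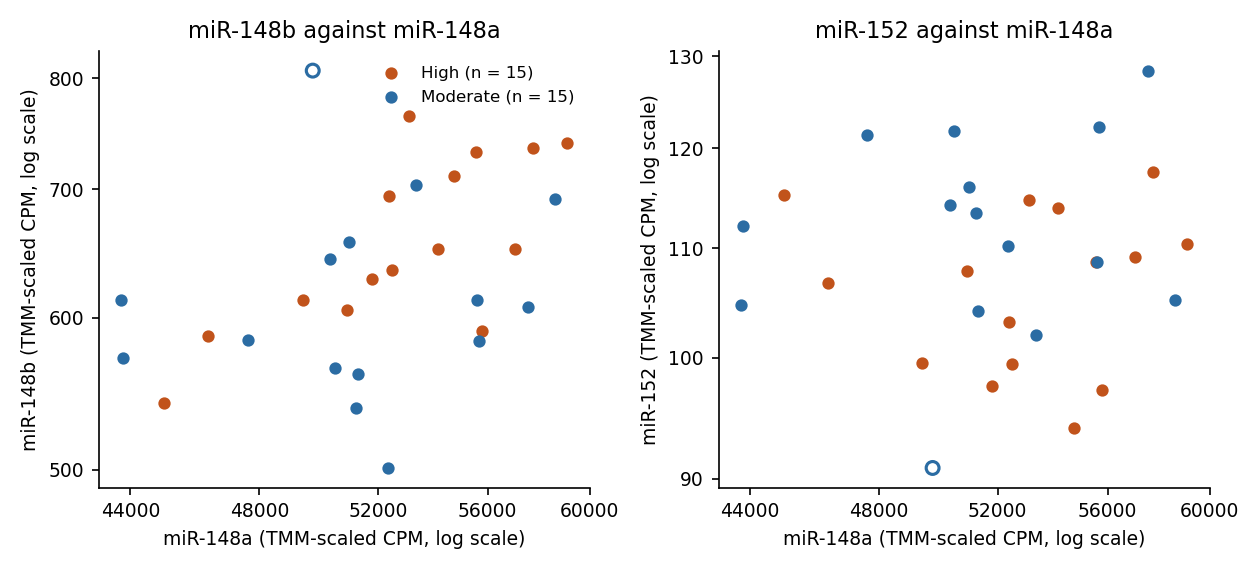
miR-148b (left) and miR-152 (right) against miR-148a in TMM-scaled CPM (log scales), 1 point per library, with Moderate replicate 5 as an open circle. Pearson r is 0.42 on the left (adjusted permutation p = 0.0608) and 0.04 on the right (0.821).

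Across calves, no pair of members had a correlation that passed after adjustment over the 3 pairs, and differences between the correlations were not tested. On the log2 scale the correlation of miR-148a with miR-148b over the 30 libraries was r = 0.42 (Spearman rho = 0.42, permutation p = 0.0203 and 0.0207), and the p-values became 0.0608 and 0.0620 over the 3 pairs. It was 0.41 without the 2 libraries farthest from the median of miR-148a, and 0.51 without Moderate replicate 5 (adjusted permutation p = 0.0151). In the 24 libraries under 12 M reads r was 0.40 (permutation p = 0.0517). miR-148a and miR-152 gave r = 0.04 (rho = 0.04, permutation p = 0.821 and 0.817; adjusted 0.821 and 0.817). That pair gave 0.05 without the 2 farthest libraries and 0.07 in the 24. miR-148b and miR-152 gave r = -0.32 (rho = -0.27, permutation p = 0.0853 and 0.155; adjusted 0.128 and 0.233), and -0.20 without the 2 libraries farthest from the median of miR-148b, -0.19 without Moderate replicate 5 and -0.35 in the 24. Taken as deviations from the diet means, the pairs gave r = 0.39, 0.11 and -0.25 in this order (rho = 0.38, 0.16 and -0.08). The adjusted permutation p for these r was 0.104, 0.578 and 0.269. All points share the scaling of their library. With library totals, which carry the miR-10b share of each library into every miRNA, the 3 correlations were 0.93, 0.94 and 0.87 in the same order, and 0.74, 0.40 and 0.35 without Moderate replicate 5.

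The miRNAs whose pattern across libraries was most like that of a member came from outside the family. Ranked by Spearman correlation over the 29 libraries without Moderate replicate 5, the miRNAs most like miR-148a among the 386 others tested were miR-30c (rho = 0.68), miR-30e-5p (0.57) and miR-92a (0.55), and miR-148b came sixth. Those most like miR-148b were miR-30d (0.76), miR-30f (0.71) and miR-191 (0.69), and miR-148a ranked 24. Those most like miR-152 were miR-99a-3p (0.68), miR-199b (0.597) and miR-26b (0.54), and miR-148a and miR-148b ranked 197 and 311. These are descriptions, since the miRNAs were picked as the highest of 386, and all values of a library share its scaling. None of the 9 passed the test for diet in the 30 libraries (adjusted p from 0.253 for miR-30f to 0.999 for miR-191 in limma).

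Other miRNAs known in mammals to target enzymes of DNA methylation and their partners were read from a list of 14 names, chosen with earlier results of these data known. Of its 16 tested rows 1 rose, 0 fell and 15 did not pass, where 2.33% of all tested miRNAs rose and 2.58% fell. The one that rose was miR-22-3p, known to target the demethylating enzyme TET2, at 12517 under High and 10149 under Moderate on average (log2 fold change 0.30, adjusted p = 0.0260 in limma). It did not pass in limma without High replicate 5 (0.27, adjusted p = 0.0520), with no filter (adjusted p = 0.0619), with library totals (adjusted p = 0.205), in the 12 libraries whose labels give 1 diet (adjusted p = 0.389, and 0.279 without Moderate replicate 5) or in the 18 with conflicting labels (adjusted p = 0.142), and by the diet in the titles it stood at -0.02. miR-29c, which targets DNMT3A and DNMT3B, stood at 0.39 (adjusted p = 0.0619), and miR-185, which targets DNMT1 as the miR-148 and miR-152 family does, at 0.15 (adjusted p = 0.0820). The median log2 fold change of the 16 was 0.14, against 0.03 over all 387 tested. With Moderate replicate 5 left out, 3 of 16 rose (miR-22-3p, miR-29a and miR-29c), where 4.94% of the 385 tested did, and the medians were 0.06 for the list and 0.003 over all tested. The mRNA of DNMT1 and of the other targets was not analysed here.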

How the data were processed

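Small RNA was sequenced from 30 testes. Per the labels' protocols, extraction used an RNeasy Plus Universal kit and library preparation a TruSeq small RNA kit. The tools were, per the submitters' processing notes, edgeR 3.5, R 3.4, cutadapt 2.6 and FastQC 0.11.8. Build, aligner and miRNA reference are each not given in the sources used here. Values deposited by the authors are a normalized signal, which the numbers show to be TMM-scaled CPM: once divided by what 1 read is worth in its column, 95.3% of 18379 nonzero values came out whole (tolerance 0.02 read). TMM factors recomputed from these reads matched the deposited scaling to 5.59e-05 in natural log.

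The main test was limma 3.58.1, its variance prior following mean level, on log2(value + 0.5), a scale that understates changes of low miRNAs, over the 387 miRNAs at 1 or more in at least 15 libraries. Tests were two-sided. edgeR 4.0.16 and DESeq2 1.42.0 were run on the recovered reads, rounded, and DESeq2's count of tested miRNAs covers those with an adjusted p. Its count at an unadjusted p under 0.05 covers all with a p-value. Ratios and correlations were tested with 100000 permutations, or exactly where a group had under 10 libraries. The limma, edgeR and DESeq2 fits were checked on simulated reads with the same dispersion for every miRNA, and the permutation tests were not. The changes put in were larger than the members' main estimates. R 4.3.3 and Python 3.11.15 were used.

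The members, lists and tests were chosen with earlier results of these data known. Named besides the members are, by rule, the 3 miRNAs most like each, the 2 nearest in level on either side, and the 3 of the methylation list with the smallest p. That list held miR-29a, miR-29b, miR-29c, miR-29d, miR-143, miR-185, miR-342, miR-126, miR-101, miR-26a, miR-26b, miR-22, miR-132 and miR-212, any arm. miR-29a and miR-342, which the list holds, were named outside these rules, as were the cell type markers except miR-143. miR-10b, a neighbour in level, was also named for its share of Moderate replicate 5. A part of the rule on seeds was not applied, because mature sequences were not used here. Replicate numbers only name libraries (accession order). Among 435 pairs of libraries none differed by sampling noise alone (lowest chi-square per degree of freedom 60.1). Wilson intervals of read shares, and floors at 3 reads, cover counting error only (PCR copies are not told apart). The limma confidence intervals rest on the spread between libraries.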

Additional observations from a re-analysis of the deposited data

Results flagged for a closer look

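One of 24 sets of 6 or 9 libraries, made by splitting the 3 members' values and 3 ratios by diet and by agreement of title with characteristic, held a value far from the rest. The ratio of miR-148b to miR-152 was 5.50 in High replicate 7, the lowest of the 6 High libraries whose labels give 1 diet, while the nearest of the other 5 stood at 6.44 and the highest at 6.73. Chance alone flags about 1 in 20 such sets.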

How the results depend on the processing

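No member passed the threshold under any of the 49 alternatives tried per member, of which most were limma fits and the others edgeR or DESeq2 fits. The log2 fold changes with 1 library left out ranged from 0.03 to 0.06 for miR-148a, from 0.08 to 0.13 for miR-148b and from -0.09 to -0.05 for miR-152. Reversed signs came with the diet in the titles (-0.017, -0.044 and 0.062) and, for miR-152, with library totals (0.14). With that diet the ratios also reversed, to 0.027 for miR-148a to miR-148b, -0.079 for miR-148a to miR-152 and -0.11 for miR-148b to miR-152. With 1 library left out they ranged from -0.09 to -0.03, from 0.10 to 0.14 and from 0.15 to 0.22. The ratios to miR-152 passed in the libraries under 12 M reads with Moderate replicate 5 left out (0.15 for miR-148a and 0.25 for miR-148b), and that of miR-148b in the 18 libraries with conflicting labels (0.23).

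The correlation of miR-148a with miR-148b passed without Moderate replicate 5 (0.51), with library totals (0.93), with totals without miR-10b (0.54), and with these totals and that library left out (0.74 and 0.65). That of miR-148a with miR-152 passed with totals (0.94), totals without miR-10b (0.41) and totals with that library left out (0.40), and was -0.00092 without that library. That of miR-148b with miR-152 changed sign with totals (0.87), totals without miR-10b (0.017) and both without that library (0.35 and 0.11).

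The count of 19 miRNAs past the threshold ranged from 0 to 45 with 1 library left out. It was 0 with no filter, with library totals, in the 12 libraries (also without Moderate replicate 5), in the 18, and when diet was read from titles. It was 8 with totals without miR-10b, 36 in edgeR, 52 in DESeq2 and 3 in the libraries under 12 M reads. Without Moderate replicate 5 it was 48 in edgeR, 61 in DESeq2, 31 with totals, 36 with totals without miR-10b and 31 under 12 M reads. At an unadjusted p under 0.05, limma counted 104 with no filter, 61 with totals, 11 by title, 43 and 58 in the 12 and the 18 libraries, and 69 in the 12 without that library. The cause of these changes was not tested. Alternatives that join edgeR, DESeq2, a scaling or a subset with leaving out Moderate replicate 5 were chosen after seeing the data. No paired analysis was possible because the labels give no replicate numbers shared between the diets. The lowest read count behind a member's value was 191, for miR-152 in Moderate replicate 5.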
